A study of Mus musculus with 13 samples.

Results

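Myelin is the membrane that oligodendrocytes wrap around axons in the brain, and 9 of its genes were followed here in mice fed creatine and in mice that were not. They encode the membrane proteins and adaptors Mbp, Mobp, Mal, Cldn11, Mag, Mog and Cnp and the lipid enzymes Ugt8a and Fa2h. Every probe set with 1 of these symbols and no other in the array's probe annotation was taken, which gave 24 of 45037 probe sets and 9 of the 18193 genes named on the array. The data are expression arrays of RNA from a brain hemisphere of 13 mice, all males of the strain C3HeB/FeJ. For 6 months, 6 mice ate pellets containing 1% creatine and 7 mice ate pellets matched in calories without it, starting at 10 to 12 weeks of age. No genotype beyond the strain is given, and the labels call the mice of a group biological replicates.

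Creatine is a small molecule that cells phosphorylate to hold a reserve for making ATP. Oligodendrocytes spend much of their lipid and protein synthesis on myelin, and they also express the enzymes that make creatine. In the compact part of the sheath, Mbp, the myelin basic protein, binds the inner faces of the membrane together, and Mobp is a further basic protein of the same layers. Mal is a proteolipid of lipid-rich membranes, and Cldn11 forms the tight junctions that seal the sheath. Mag is an adhesion molecule on the membrane next to the axon, Mog lies on the outermost surface, and Cnp is an enzyme of the cytoplasm-filled channels of non-compact myelin. Ugt8a adds galactose to ceramide to make galactosylceramide, and Fa2h hydroxylates the fatty acids that this lipid carries. The transcription factors Sox10 and Myrf drive these genes in oligodendrocytes.

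Because these genes share regulators, the promoters of 3 of them are shown, chosen for the letters they hold, with letters matching a short Sox10 site (ACAAAG) or Myrf site (CTGGCAC) on either strand in capitals. The windows are the 250 bases before an annotated start, written 5′ to 3′ on the strand of the gene, from RefSeq on GRCm38.p6, a genome of another strain (C57BL/6J). The table held 7 of the 9 genes in 9 windows; Mbp and Fa2h were not searched. The Mag window lies at chr7:30914864-30915113 on the minus strand, the Cnp window at chr11:100574689-100574938 on the plus strand and the Mobp window at chr9:120149492-120149741 on the plus strand.
Mag: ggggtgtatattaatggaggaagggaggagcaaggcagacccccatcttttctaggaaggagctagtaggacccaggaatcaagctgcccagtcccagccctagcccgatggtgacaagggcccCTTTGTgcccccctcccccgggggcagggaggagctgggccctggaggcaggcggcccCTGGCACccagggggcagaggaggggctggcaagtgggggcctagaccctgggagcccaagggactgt
Cnp: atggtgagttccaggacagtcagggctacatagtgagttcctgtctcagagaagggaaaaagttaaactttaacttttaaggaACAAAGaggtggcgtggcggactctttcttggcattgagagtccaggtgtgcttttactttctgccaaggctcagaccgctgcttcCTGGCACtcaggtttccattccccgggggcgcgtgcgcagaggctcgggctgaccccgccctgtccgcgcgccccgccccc
Mobp: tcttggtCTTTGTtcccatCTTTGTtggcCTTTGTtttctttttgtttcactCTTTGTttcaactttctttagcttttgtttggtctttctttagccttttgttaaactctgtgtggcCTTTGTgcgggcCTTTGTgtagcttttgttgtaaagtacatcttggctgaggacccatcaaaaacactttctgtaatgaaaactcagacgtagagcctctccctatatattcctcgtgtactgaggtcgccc

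Sox10 letters stood in the windows of 3 genes, Mag, Cnp and Mobp, and Myrf letters in those of 2, Mag and Cnp. Counted by window, 4 of the 9 held the Sox10 letters, 3 the Myrf letters and 3 both. Over all 32851 windows of this length, 16.5% held the Sox10 letters, 4.19% the Myrf letters and 0.691% both. The Mobp window held the Sox10 letters 6 times, all on the opposite strand, and was the only 1 of the 32851 with that many. TATAAA was in none of the 9 windows of these 7 genes and in 12.4% of all windows. Of the 3 Mag windows, 2 that overlap held both sites, 1 of which is shown, and the third held neither, like the windows of Cldn11, Mal, Mog and Ugt8a. These matches describe letters and do not show binding.

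Intensities are the authors' values on a linear scale. Array medians ran from 37 to 45, and Mobp 1441308_at was the only probe set of the 24 below the median of its array in every mouse. The log2 ratio of the 3′ to the 5′ control probe sets of Gapdh and Actb, a sign of RNA quality, lay between 0.09 and 0.22 in creatine-fed mice and between 0.13 and 0.24 in untreated mice. Cerebellar markers differed widely among mice of both groups: the summed intensity of 10 of them ran from 4377 to 12762 in creatine-fed and from 1172 to 17028 in untreated mice. Differences between groups below are on the scale of log2(intensity + 16), as creatine-fed minus untreated, with standard errors and 95% intervals from limma, and adjusted p by Benjamini-Hochberg over all 45037 probe sets.

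The myelin genes had slightly lower mean intensities in creatine-fed mice, and none passed the test. Of the 24 probe sets, 21 had a lower mean and 3 a higher one, and the median log2 difference was -0.14. Over all probe sets 57.8% had a lower mean and the median was -0.03. No member passed at an adjusted p under 0.05, where 4 of all 45037 probe sets did (0.00888%). At an unadjusted p under 0.05, 7 members were lower (7.70% of all probe sets were) and 1 was higher (4.17% of all). Of those 7, 5 were probe sets of Mbp, which share a transcript and are not separate evidence. In none of the 24 were the groups fully apart, as they were in 0.560% of all probe sets. After each array was centred on its median, 20 of the 24 were lower with a median of -0.09, against 43.3% and a median of 0.02 over all probe sets. After quantile normalization 22 were lower with a median of -0.12, against 51.2% and a median near 0 over all. The 7 lower at an unadjusted p under 0.05 became 2 under either of these, and 4 without creatine-fed replicate 1. They became 10 with limma's trend and robust settings, 9 with array weights or an offset of 50, and 8 with an offset of 1. Quantile normalization can by construction shrink differences at probe sets as bright as most of those of Mbp. In RNA from a whole hemisphere, fewer oligodendrocytes, less RNA in each of them and unequal shares of brain regions cannot be told apart. As no member passed, a difference is itself not established.

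**Figure D1:**
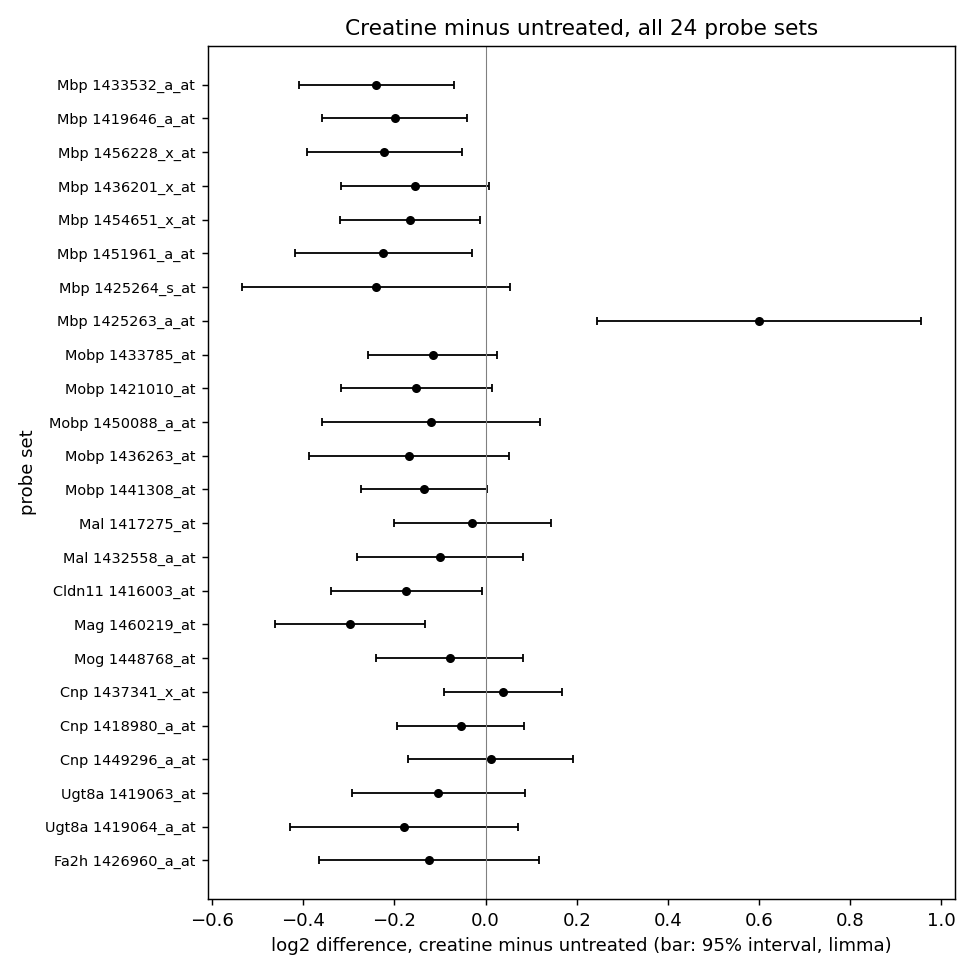
Log2 difference (creatine-fed minus untreated, horizontal axis) of each of the 24 probe sets, with its 95% interval from limma. The points of 21 probe sets lie below 0, Mag at -0.30 is the lowest, and Mbp 1425263_a_at at 0.60 stands alone on the right.

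Mag, the adhesion protein facing the axon, had the lowest log2 difference of the 24. At its only probe set, 1460219_at, the creatine-fed mice read 514 at the lowest, 634.5 at the median and 693 at the highest, and the untreated mice 691, 747 and 827. The groups touched at 1 point: 5 of 6 creatine-fed mice lay below every untreated mouse, and the other one was 2 units above the lowest untreated mouse. The means were 612 ± 65.6 (SD, n = 6) and 754 ± 46.5 (SD, n = 7), with a log2 difference of -0.30 ± 0.08 (SE; 95% interval -0.46 to -0.13). Mag did not pass (limma adjusted p = 0.186 over all probe sets). Among the 22519 probe sets with the higher mean it had an adjusted p of 0.0741, where 137 passed (0.608%), and with limma's trend and robust settings it passed at 0.0441, where 161 of all probe sets did (0.357%).

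The Mbp probe sets did not all differ in the same direction. At its brightest probe set, 1433532_a_at, creatine-fed mice read 8466 at the lowest, 8896 at the median and 10727 at the highest, and untreated mice 9864, 10467 and 12936. All but 1 creatine-fed mouse, replicate 6, lay below every untreated mouse. Means were 9139 ± 838 (SD, n = 6) and 10796 ± 1030 (SD, n = 7), a log2 difference of -0.24 ± 0.08 (SE; 95% interval -0.41 to -0.07, limma adjusted p = 0.26). Lower means were also seen at 6 further probe sets, with log2 differences from -0.24 at 1425264_s_at to -0.16 at 1436201_x_at and adjusted p from 0.292 to 0.527. After quantile normalization the log2 difference shrank to -0.11 at 1433532_a_at, -0.10 at 1419646_a_at, -0.07 at 1436201_x_at, -0.08 at 1454651_x_at and -0.14 at 1456228_x_at. By mean intensity these ranked 1, 11, 42, 64 and 27 of all probe sets. Quantile normalization gives equal ranks the same value on every array. Differences among the brightest probe sets can therefore shrink by construction. The suffixes _s and _x mark probes that can match other transcripts too.

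The eighth Mbp probe set, 1425263_a_at, went the other way. Creatine-fed mice read 76 at the lowest, 137.5 at the median and 150 at the highest, and untreated mice 58, 68 and 127. Of the 6 creatine-fed mice, 5 read 129 or more, above every untreated mouse, while replicate 4 read 76, among the untreated mice. Means were 130 ± 27.4 (SD, n = 6) and 80.4 ± 24.0 (SD, n = 7), a log2 difference of 0.60 ± 0.17 (SE; 95% interval 0.25 to 0.96), which did not pass (limma adjusted p = 0.204). The probe annotation does not say which of the gene's alternative transcripts this probe set reads.

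**Figure D2:**
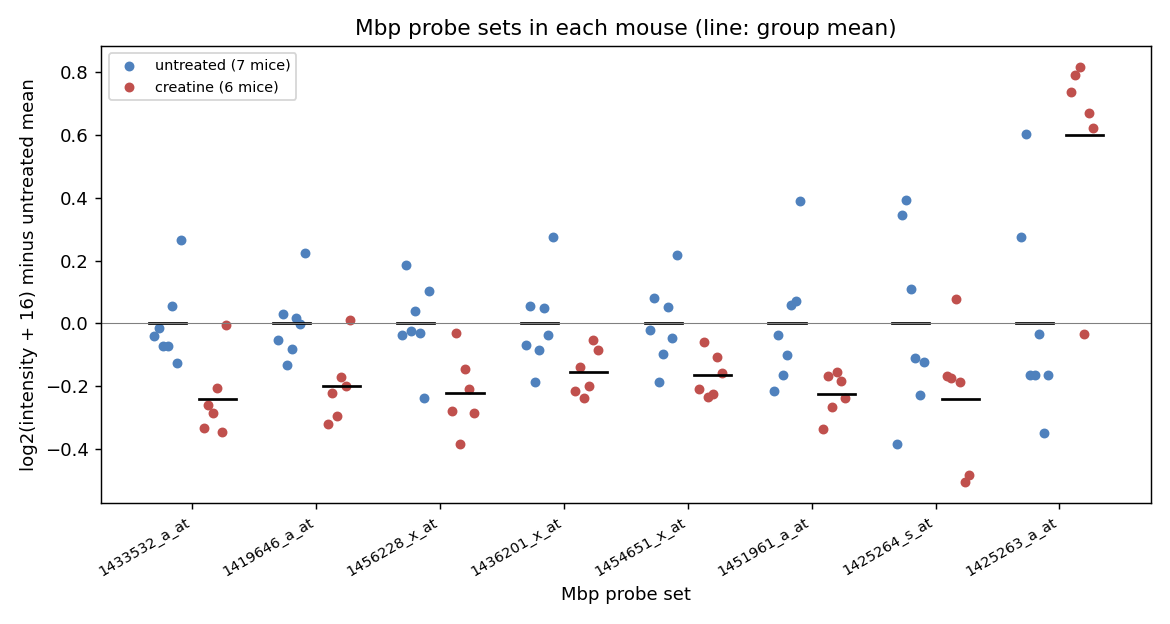
Each of the 8 Mbp probe sets in every mouse, as log2(intensity + 16) minus the mean of the 7 untreated mice, with black lines at group means. At 7 probe sets the creatine-fed mean lies below 0; at 1425263_a_at, on the far right, 5 of 6 creatine-fed mice lie above all untreated mice.

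The Mbp probe sets were also compared with each other within each array. For each of the 7 other probe sets the log2 ratio to 1433532_a_at, after the offset of 16, was compared between the groups with an exact 2-sided permutation test. The ratio of 1425263_a_at was higher in creatine-fed mice by 0.84 (mean -6.00 ± 0.37, SD, n = 6, against -6.84 ± 0.35, SD, n = 7; exact permutation p = 0.0035, adjusted p = 0.0245 over the 7 ratios). This ratio ran from -6.67 to -5.73 in creatine-fed and from -7.27 to -6.22 in untreated mice, so the groups overlapped. The difference was 0.93 with an offset of 1 and 0.70 with an offset of 50, and it passed with both. With each mouse left out in turn the difference stayed between 0.77 and 0.97, but the adjusted p passed in 5 of 13 cases and was between 0.0606 and 0.0707 in the other 8, those without creatine-fed replicate 1, 2 or 3 or untreated replicate 3, 4, 5, 6 or 7. The other 6 ratios differed by -0.00 to 0.08, with adjusted p of 0.484 or more.

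The other proteins of compact myelin and of its junctions had smaller log2 differences, and none passed. All 5 probe sets of Mobp had lower means, by -0.12 at the brightest, 1433785_at (2719 at the lowest, 3006 at the median and 3157 at the highest in creatine-fed mice, and 2996, 3115 and 3646 in untreated mice). Of the creatine-fed mice 3 read below every untreated mouse there, and 3 of the untreated mice above every creatine-fed mouse. Its other 4 probe sets differed by -0.17 to -0.12. Of these, 1436263_at differed by -0.08 without creatine-fed replicate 6, and 1450088_a_at by -0.05 without untreated replicate 7 and by -0.07 without creatine-fed replicate 3. The dim 1441308_at held only 1 to 6 units in any mouse, and its difference moved from -0.73 to -0.05 as the offset went from 1 to 50.

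At 1417275_at Mal had means of 1074 ± 106 (SD, n = 6) in creatine-fed and 1095 ± 95.2 (SD, n = 7) in untreated mice and a log2 difference of -0.03 (95% interval -0.20 to 0.14). Its sign turned, to 0.02, after each array was centred on its median. At its second probe set, 1432558_a_at, Mal differed by -0.10, and by -0.05 without untreated replicate 7. Cldn11, the claudin of the sheath, read 357 at the lowest, 420 at the median and 450 at the highest in creatine-fed mice, and 424, 454 and 560 in untreated mice. The mean of the untreated mice was above all 6, and 3 of the 6 read lower than any untreated mouse. The log2 difference of Cldn11 was -0.17 ± 0.08 (SE; 95% interval -0.34 to -0.01, limma adjusted p = 0.397).

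Mog, on the outer surface of the sheath, had means of 248 ± 17.3 (SD, n = 6) with creatine and 263 ± 26.5 (SD, n = 7) without, and its log2 difference was -0.08 (95% interval -0.24 to 0.08), or -0.04 without untreated replicate 7 and -0.05 without creatine-fed replicate 3. Cnp, the enzyme of non-compact myelin, had differences near 0. Its 3 probe sets differed by -0.05, 0.01 and 0.04, with the middle one changing sign as single mice were left out (-0.03 to 0.05). The value of 0.04 was at the brightest, 1437341_x_at, where the means were 3856 ± 138 (SD, n = 6) with creatine and 3760 ± 239 (SD, n = 7) without, with a 95% interval of -0.09 to 0.17. At none of the 3 probe sets did the interval reach down to the log2 difference of Mag, -0.30, which was the lowest of all members. At Cnp 1418980_a_at the interval was -0.19 to 0.09 and at 1449296_a_at -0.17 to 0.19. Both overlapped that of Mag, -0.46 to -0.13, while that of 1437341_x_at did not. The difference between the genes was not tested.

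Both enzymes of galactolipid synthesis were lower in mean and did not pass. At 1419063_at Ugt8a had means of 667 ± 54.9 (SD, n = 6) with creatine and 721 ± 95.5 (SD, n = 7) without. It differed by -0.10 there (log2, 95% interval -0.29 to 0.09) and by -0.18 at 1419064_a_at. Without untreated replicate 7 the difference at 1419063_at was -0.05. Fa2h read 284 at the lowest, 333.5 at the median and 391 at the highest in creatine-fed mice, and 274, 372 and 444 in untreated mice. Its log2 difference was -0.12 (95% interval -0.36 to 0.12, limma adjusted p = 0.713), and the range of the creatine-fed mice lay inside that of the untreated mice. With single mice left out it ran from -0.19 without untreated replicate 4 to -0.08 without creatine-fed replicate 3 or untreated replicate 5 or 7.

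**Figure D3:**
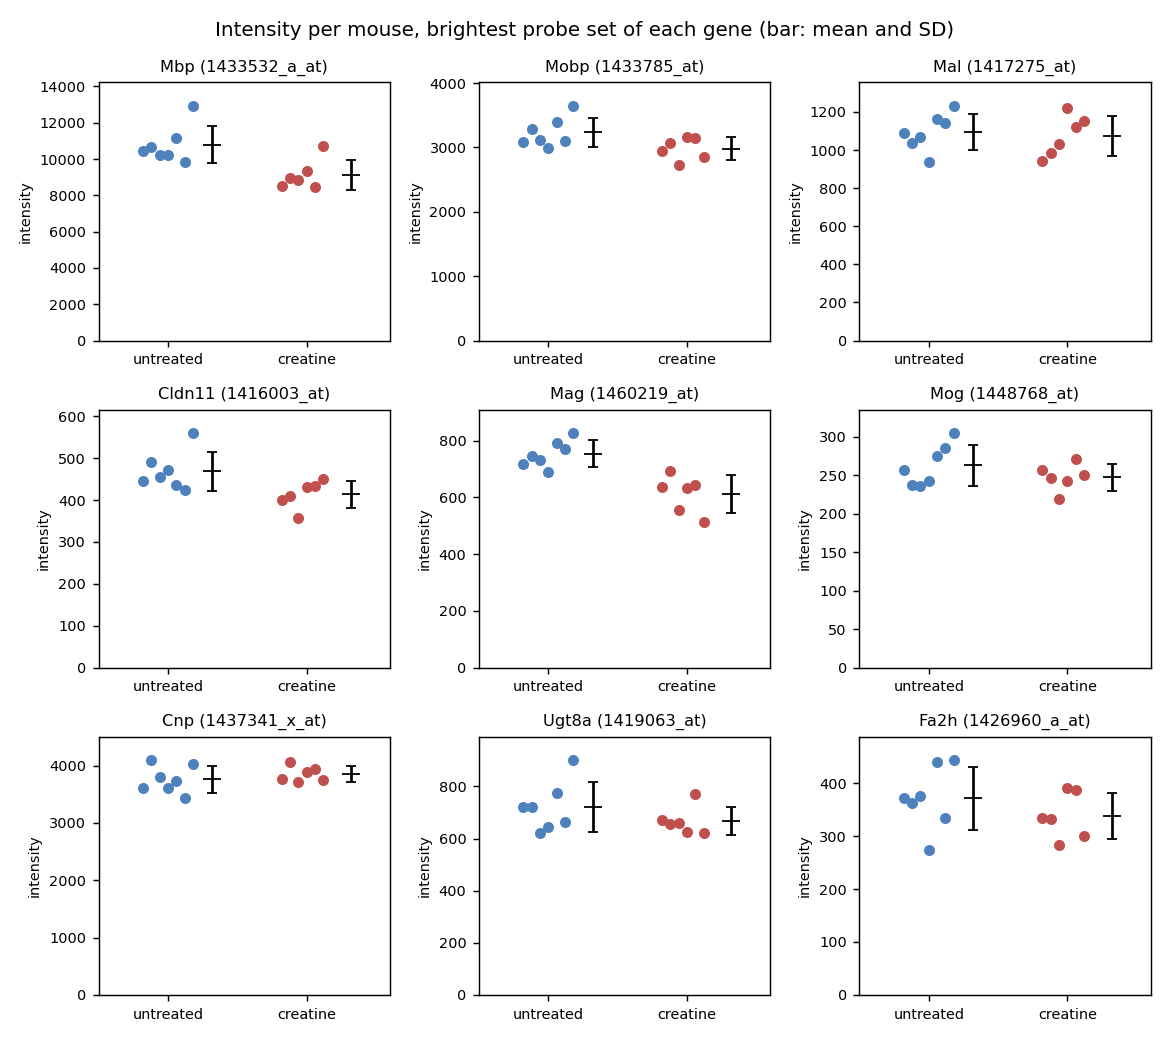
Intensity of each mouse at the brightest probe set of each of the 9 genes, untreated in blue and creatine-fed in red, with the mean and SD beside the points and every axis starting at 0. At Mag and Mbp 5 of 6 creatine-fed mice lie below all untreated mice, a pattern not counted over all probe sets, while Cnp and Mal overlap throughout.

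Single mice stood out across the myelin genes. Untreated replicate 7 held the highest value of the 13 mice at 16 of the 24 probe sets, where it did so at 9.76% of all probe sets. Creatine-fed replicate 3 held the lowest at 8, and its share over all probe sets was not counted. Over the 23 probe sets above the array medians, the median log2 deviation from the untreated mean was 0.22 in untreated replicate 7 and -0.24 in creatine-fed replicate 3. It ran from -0.24 to -0.06 in creatine-fed mice and from -0.10 to 0.22 in untreated mice, so the groups overlapped. Without untreated replicate 7 the median log2 difference of the 24 probe sets was -0.11 with 21 lower, and without creatine-fed replicate 3 it was -0.12 with 21 lower.

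Untreated replicate 7 was also highest for brainstem markers, a list of Hox genes, monoamine neuron genes and others such as En1, En2 and Glra1. The mean z-score of the 24 measured brainstem markers was 0.99 in that mouse and ran from -0.54 to 0.64 in the other untreated mice and from -0.62 to 0.00 in creatine-fed mice. Of these markers 20 of 24 had lower means in creatine-fed mice (median log2 difference -0.29), none passed, and 12 lay below every array median. Their summed intensity ran from 479 to 895 in creatine-fed and from 439 to 1310 in untreated mice. En2, the brightest of them, weighs heavily in that sum. It ran from 85 to 309 in creatine-fed and from 25 to 395 in untreated mice. Cerebellar markers also ran widely, Pcp2 from 736 to 2104 in creatine-fed and from 27 to 2881 in untreated mice. Whether En2 followed them was not tested, so the sum cannot be read as brainstem content alone. Without untreated replicate 7, 18 of the 24 brainstem markers were lower with a median of -0.18, and after median centring 17 were. With the brainstem mean as a covariate the median log2 difference of the 24 myelin probe sets was -0.04, with 18 lower and 2 of them at an unadjusted p under 0.05, where all probe sets had a median of -0.02. Mag then differed by -0.19 (limma adjusted p = 0.477), and Mbp by -0.19 at 1433532_a_at and by 0.76 at 1425263_a_at. Mog (0.02) and Ugt8a at 1419063_at (0.07) turned higher, and Cldn11 differed by -0.10 and Fa2h by -0.00. The covariate came from the same arrays and was mostly lower in creatine-fed mice. The fit therefore cannot separate brainstem content from creatine feeding.

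**Figure D4:**
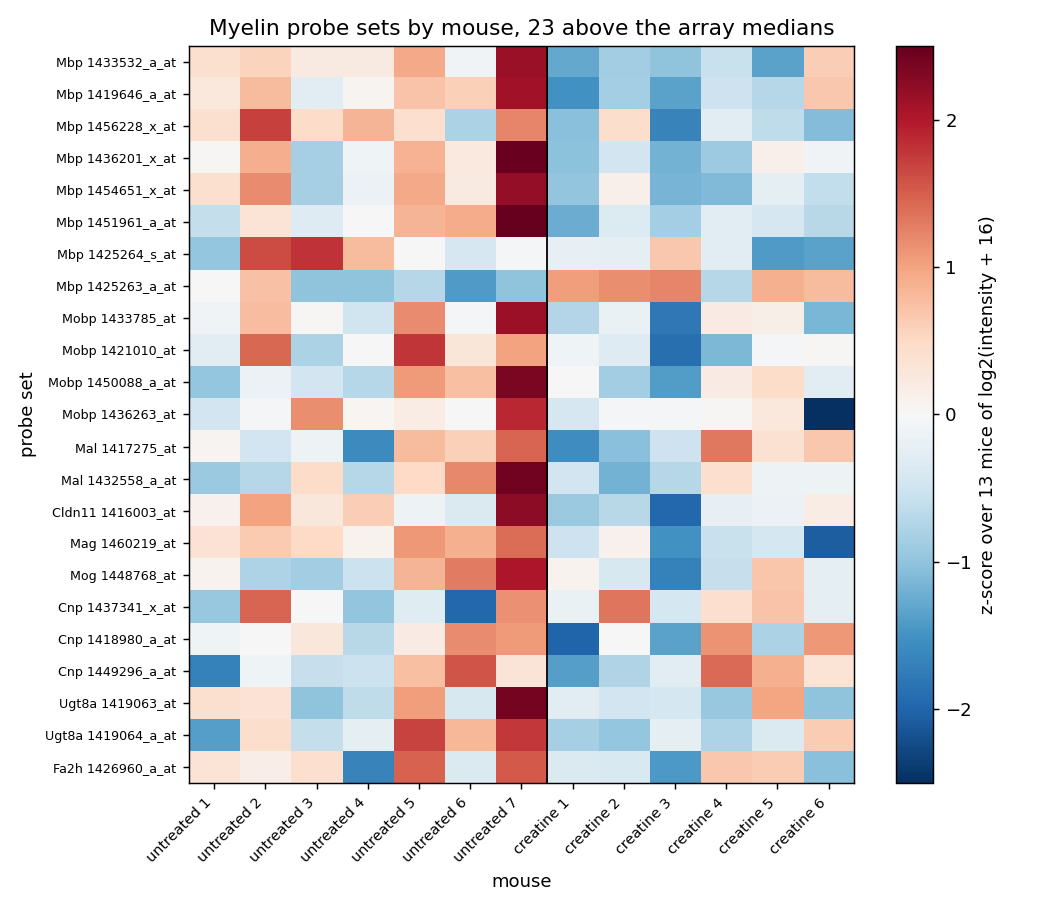
Z-scores over the 13 mice (columns) of the 23 myelin probe sets above the array medians (rows), red for high and blue for low, with a line between the untreated and creatine-fed mice. Untreated replicate 7 is red in most rows, creatine-fed replicate 3 is blue in most, and the row of Mbp 1425263_a_at runs against the other Mbp rows.

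Members were compared with Mag, and Mbp probe sets with 1433532_a_at, over the 13 mice in 15 relations. Mag went with Mobp most closely (Pearson's r = 0.83, permutation p = 0.00056, adjusted p = 0.0042; Spearman's rho = 0.73, permutation p = 0.00625, adjusted p = 0.0469). That relation held within the creatine-fed mice (r = 0.75, n = 6), within the untreated mice (r = 0.89, n = 7) and without the 2 mice farthest from the median of Mag (r = 0.73). Mag with Fa2h gave r = 0.63 (permutation p = 0.0219, adjusted p = 0.0489; rho = 0.54, permutation p = 0.0616, adjusted p = 0.116), and r fell to 0.40 without those 2 mice. Mag with Mbp gave r = 0.53 (permutation p = 0.0637, adjusted p = 0.0796; rho = 0.55, permutation p = 0.0522, adjusted p = 0.114), but r was -0.68 within creatine-fed and 0.73 within untreated mice, and r was 0.88 without the 2 farthest mice, creatine-fed replicates 6 and 3, so the pooled value rests on which mice are included. With Cnp, Mag gave r = 0.07 over all mice (permutation p = 0.812; rho = 0.10, permutation p = 0.753), but r was 0.81 within creatine-fed and 0.37 within untreated mice.

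Among the Mbp probe sets, 1419646_a_at followed 1433532_a_at most closely (r = 0.94, permutation p = 1e-05, the smallest the resamples can give, adjusted p = 0.00015; rho = 0.91, permutation p = 2e-05, adjusted p = 3e-04), with r = 0.90 and 0.87 within the groups and 0.93 without the 2 farthest mice. The probe set 1425263_a_at gave r = -0.56 (permutation p = 0.0462, adjusted p = 0.0653; rho = -0.51, permutation p = 0.0757, adjusted p = 0.124), with -0.25 within creatine-fed and 0.01 within untreated mice. For 1454651_x_at and 1456228_x_at, r was 0.76 and 0.62 over all mice but -0.04 and -0.06 within creatine-fed mice. In all, 7 of the 15 relations passed by r and 2 by rho after adjustment. Arrays share their scaling and the probe sets of a gene its transcripts.

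The rest of the myelin programme was lower in mean more often than not, and none of it passed. Of 24 measured genes for other myelin sheath proteins 19 had lower means (median log2 difference -0.06), of 19 other myelin lipid enzymes 15 (-0.08) and of 15 further genes of mature oligodendrocytes 12 (-0.11). At the brightest probe set of all 18193 genes 58.5% had lower means, with a median of -0.03, and 1 passed (0.00550%). After each array was centred on its median the lists counted 15, 12 and 10 lower, against 42.5% of all genes. With the brainstem mean as a covariate they counted 9, 13 and 10 lower, against 59.0% of all genes.

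Among these genes Myrf, the transcription factor of myelination, had means of 114 ± 22.5 (SD, n = 6) with creatine and 151 ± 33.4 (SD, n = 7) without, and it differed by -0.36 ± 0.14 (SE, limma adjusted p = 0.345). Sox10 differed by -0.13 and Olig2 by -0.15, whereas Olig1 differed by 0.06. Gnpat, which starts the synthesis of ether lipids such as plasmalogens, differed by -0.25 (adjusted p = 0.284), and the gap junction gene Gjb1 by -0.20. Of the lipid enzymes nearest to Ugt8a and Fa2h, Gal3st1, which sulphates galactosylceramide, differed by -0.13 and the ceramide synthase Cers2 by -0.08. A few went the other way: Omg, a surface glycoprotein of oligodendrocytes that neurons express too, had means of 969 ± 79.5 (SD, n = 6) with creatine and 815 ± 52.1 (SD, n = 7) without and differed by 0.24 (adjusted p = 0.219), and Sgms1, a sphingomyelin synthase, differed by 0.30 at its brightest probe set (limma adjusted p = 0.35), while 1 of its 4 probe sets had a lower mean.

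**Figure D5:**
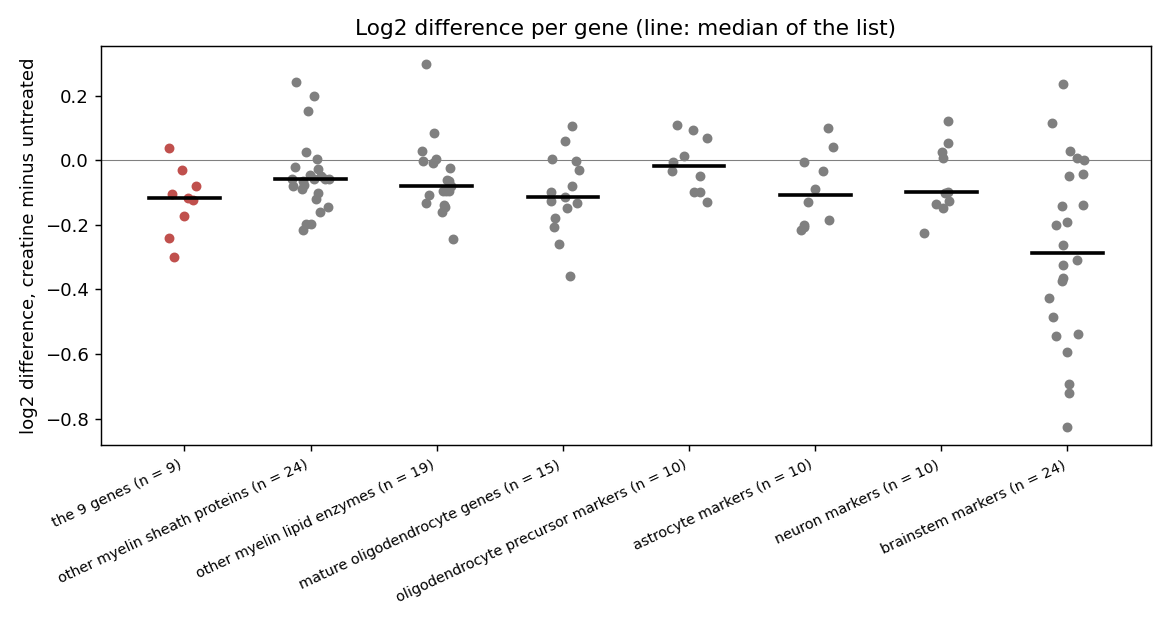
Log2 difference (creatine-fed minus untreated) of each gene at its brightest probe set, for the 9 myelin genes in red and for related lists and markers of other cells and regions in grey, with a black line at each median. The medians are -0.12 for the 9 genes, -0.06 to -0.11 for the other myelin and mature oligodendrocyte lists, -0.02 for precursors and -0.29 for brainstem markers.

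Markers of other cells were read from the same fit. Oligodendrocyte precursor markers, 6 of 10 lower, had a median log2 difference of -0.02, and their summed intensity ran from 2020 to 2495 in creatine-fed and from 2047 to 2193 in untreated mice. Astrocyte markers were lower in 8 of 10 (median -0.11; summed intensity 12813 to 14297 against 13663 to 16446) and neuron markers in 6 of 10 (median -0.10; 30930 to 34100 against 32025 to 35725). Endothelial markers were lower in 5 of 7 (median -0.08), microglia markers in 1 of 9 (median 0.08) and Schwann cell markers in 1 of 5 (median 0.05). Only 2 of those 5, Sox2 and Drp2, were among the probe sets with the higher mean. The count therefore says little about Schwann cells. Cerebral cortex markers were lower in 0 of 11 (median 0.07) and cerebellar markers in 2 of 10 (median 0.10). These counts are of log2 means, and cerebellar signs depended on the scale. Pcp2 had a lower mean intensity with creatine (1488 against 1670) but a log2 difference of 0.34 ± 0.79 (SE). Its lowest untreated value was 27. Gabra6, Cbln1, Ppp1r17, Neurod1 and Zic2 also changed sign between the scales, and only Cbln3 and Car8 were higher on both. No marker passed. The part that these markers have in the myelin values was not tested, and the fit with the brainstem covariate cannot measure it.

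Over the 13 mice, the genes outside the 9 whose brightest probe sets were most like the mean z-score of the 9 were Atp5g3, a subunit of ATP synthase (r = 0.89), Kctd9 (0.89), Aspa, which splits N-acetylaspartate in oligodendrocytes (0.88), Car2, a carbonic anhydrase of oligodendrocytes (0.87), Hapln2, a link protein at nodes of Ranvier (0.87), Ttc34 (0.86), Selenop, a selenium carrier (0.85), and Zwint (0.84). They were picked from 11135 genes, and all arrays share their scaling, so r is a description. Aspa differed between the groups by -0.15, Car2 by -0.13 and Hapln2 by -0.16, none of which passed.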

How the data were processed

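Expression arrays were read for 13 mice, 6 creatine-fed and 7 untreated. The authors deposited 1 intensity per probe set and array, linear whole numbers whose mean, trimmed by 2% at each end, was 150.05 on every array, the form of a global scaling. Per the submitters' processing notes RMA was used, which returns log2 values and so does not describe these; the scaling tool is not given in the sources used here. Control probe sets (64) were set aside, leaving 45037. Of these 34945 had 1 symbol, 932 several and 9160 none listed here; 34741 symbols were updated through the Entrez ID. An offset of 16 was added before log2, and limma 3.58.1 in R 4.3.3 (lmFit, eBayes, 2-sided, no covariates) was fitted to all probe sets, with Benjamini-Hochberg adjustment and a threshold of 0.05. Correlations used 100000 resamples. The fit was tested on simulated data with planted differences larger than most of those reported here. That test does not show how well smaller differences are found.

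The 9 genes, the lists and the tests were chosen with earlier results of these data known. Named are all 9 genes at every probe set, up to 4 genes of each myelin list with the smallest p, and the 8 genes most like the 9; Sox10, Olig1, Olig2, Gal3st1 and Cers2 were named after their values were seen. A gene's brightest probe set is that with the highest mean over the 13 mice. Some list genes were not analysed here. Alternatives were offsets of 1 and 50, the probe sets with the higher mean, quantile normalization, centring on the median, covariates, array weights, trend and robust settings, the replicate number as a block and leaving out each mouse. Precision is limited by how many arrays there are.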

Additional observations from a re-analysis of the deposited data

Results flagged for a closer look

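Among the 48 groups of values (24 probe sets in 2 groups), 2 held a mouse far from the others of its group, where chance flags about 1 in 20. At Mbp 1425263_a_at creatine-fed replicate 4 read 76, while the nearest other creatine-fed mouse read 129. At Mobp 1436263_at creatine-fed replicate 6 read 238, and the nearest read 324.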

How the results depend on the processing

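No member passed except Mag with trend and robust settings (1 passed); it did not pass under the other alternatives. The count of lower members stayed between 18 and 22 and their median between -0.17 and -0.04. Probe sets called over the whole table, 4 as reported, were 137 among the brighter ones, 161 with trend and robust, 36 with offset 50, 13 with array weights, 2 after quantile normalization, 1 with the brainstem covariate, 0 with offset 1, and 0 to 6 with each mouse left out (0 without creatine-fed replicate 3 or 5 or untreated replicate 2, 3, 4, 5 or 6, and 2 without untreated replicate 7). The count of Mbp ratios that passed was 0 to 1 with a mouse left out. With the brainstem covariate 9 other sheath genes were lower, and after median centring 3 precursor markers were. Signs turned for Cnp 1449296_a_at (-0.0048 with array weights, -0.0081 after quantile normalization, -0.0264 to 0.0498 with a mouse left out), Mal 1417275_at (0.0228 after median centring, -0.0658 to 0.0076 with a mouse left out), and with the brainstem covariate for Mog (0.0175), Mobp 1450088_a_at (0.0441) and Ugt8a 1419063_at (0.0716); the cause was not tested. The Mbp ratio of 1425264_s_at turned to 0.026 with offset 50 and ran from -0.0739 to 0.10 with a mouse left out, that of 1451961_a_at from -0.0142 to 0.0647 and that of 1456228_x_at from -0.0256 to 0.0768.

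Mice of the 2 groups share replicate numbers 1 to 6, but nothing in the labels pairs them. Correlations of deviations between same-numbered mice ran from -0.14 to 0.33, 2 of 6 above 0.1, and 1 of 6 was best with its own number. With the number as a replicate block, which leaves untreated replicate 7 without a partner, 0 probe sets were called and 0 members passed. Then 3 members were lower at an unadjusted p under 0.05 in place of 7, the member median was -0.11, and Mag differed by -0.28. The Mbp ratio of 1425263_a_at differed by 0.77 (limma adjusted p = 0.00025 over the 7 ratios) and that of 1456228_x_at by -0.0099. That limma fit held only the 7 ratios, which share a reference probe set, and drew their variances towards each other. Its p can be too small for a noisy ratio and does not replace the exact permutation p.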
